A study of Mus musculus with 4 samples.

Results

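The transcripts described here are those of 10 genes that stand between Toll-like or TNF receptors and the transcription factors NF-κB and IRF3: Chuk, Ikbkb, Ikbkg, Ikbke, Tbk1, Map3k7, Map3k8, Map3k14, Ripk1 and Ripk2. They form a list by pathway role, drawn up with earlier results of these data known, and the rule was an exact match of the gene symbol. Each symbol matched a single row of the 34745 genes in the deposited table. The cells were peritoneal macrophages of wildtype C57BL/6 mice, drawn to the abdominal cavity over 3 days by an injection of 2 ml of 3% thioglycolate medium and then cultured as adherent cells. One group had been pre-treated with MB-3 at 50 µM, a compound known to inhibit the acetyltransferase GCN5, and the other with DMSO. Both groups, the DMSO controls included, had received lipopolysaccharide (LPS) at 100 ng/ml for 4 hours, and cells without LPS were not analysed here. There were 2 libraries a group, and nothing in the labels says that they came from separate animals or cultures, so a p-value here reflects only how far these libraries scatter, which may be technical. The series title speaks of macrophages grown from bone marrow, whereas the label of each sample names the peritoneal cavity.

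In this pathway, ligand-bound receptors gather adaptors and ubiquitin chains on which the kinases are switched on. TAK1 (Map3k7) activates the IκB kinase complex, made of IKKα (Chuk), IKKβ (Ikbkb) and the regulatory subunit NEMO (Ikbkg), which is not itself a kinase. That complex marks IκB proteins for destruction and so frees NF-κB. TBK1 and IKKε (Ikbke) are the related kinases that phosphorylate IRF3 on the way to type I interferon. RIPK1 and RIPK2 carry signals from the TNF receptor and from the NOD sensors of bacterial cell wall, TPL2 (Map3k8) feeds the ERK cascade, and NIK (Map3k14) starts the non-canonical NF-κB route through IKKα.

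Library totals ran from 15598531 to 21320618 counts, and all 10 genes passed the filter on low counts. Library composition differed with treatment. The share of the 10 top genes was 13.3% and 13.1% with DMSO against 19.0% and 19.4% with MB-3, and that of mitochondrial genes was 1.79% in both DMSO libraries against 2.27% and 2.22% with MB-3. The part of this in the results was not tested. All 8 macrophage markers had counts in each library and summed to between 24604 and 31053 CPM (counts scaled to a common library total), most of it Lyz2. Among them Lyz2, Cd68 and Csf1r were higher in value in both MB-3 libraries. Itgam had separate rows that went opposite ways, at 59.0 and 35.6 CPM with DMSO against 184 and 133 CPM with MB-3, and at 78.6 and 94.8 against 0.108 and 75.3 CPM. Cd14 was at 1087 and 1181 CPM with DMSO and 552 and 563 CPM with MB-3. Fcgr1 was at 48.3 and 61.4 against 9.55 and 10.8 CPM, and Mertk at 41.4 and 30.8 against 14.9 and 12.2 CPM. Markers of 8 other cell types were sparse, with list sums between 0 and 38.9 CPM in any library. The mesothelial or stromal list summed to 12.4 and 29.9 CPM with DMSO and to 18.0 and 38.9 CPM with MB-3, the higher value being replicate 2 in each group. The T cell list summed to 17.9 and 18.0 CPM with DMSO and to 2.64 and 3.08 CPM with MB-3. Lck made up nearly all of it with DMSO (17.4 and 16.7 CPM) and most of it with MB-3 (2.00 and 1.96 CPM), while Cd3e had 0 counts in 3 libraries and 2 counts in the fourth. The neutrophil list, carried by S100a8, was at 21.8 and 23.0 CPM against 11.8 and 10.1 CPM, with Ly6g at 0 counts throughout. The part of these cells in the results below was not tested. Because these are bulk libraries, fewer expressing cells and less RNA per cell cannot be told apart.

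Of the 10 genes, 4 were lower with MB-3 (Ripk2, Ikbke, Ikbkb and Map3k8), 2 were higher (Ripk1 and Map3k14) and 4 did not pass an adjusted p of 0.05 (Chuk, Ikbkg, Tbk1 and Map3k7). Among all 11841 genes tested, 37.1% were called, 20.2% as lower and 16.9% as higher (edgeR, quasi-likelihood, p-values adjusted after Benjamini and Hochberg). The median log2 fold change was -0.16 over the 10 genes and -0.01 over all genes tested, and the median size of the change without its sign was 0.79 and 0.39. Of the 10 genes, 9 had groups without overlap, as had 70.8% of all genes tested. The summed level of the 10 genes was 842 and 852 CPM (from here on after TMM scaling) in the DMSO libraries and 663 and 613 CPM in the MB-3 libraries. Ripk2 alone made up 25.4% and 23.5% of that sum with DMSO and 10.0% and 9.6% with MB-3.

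**Figure D1:**
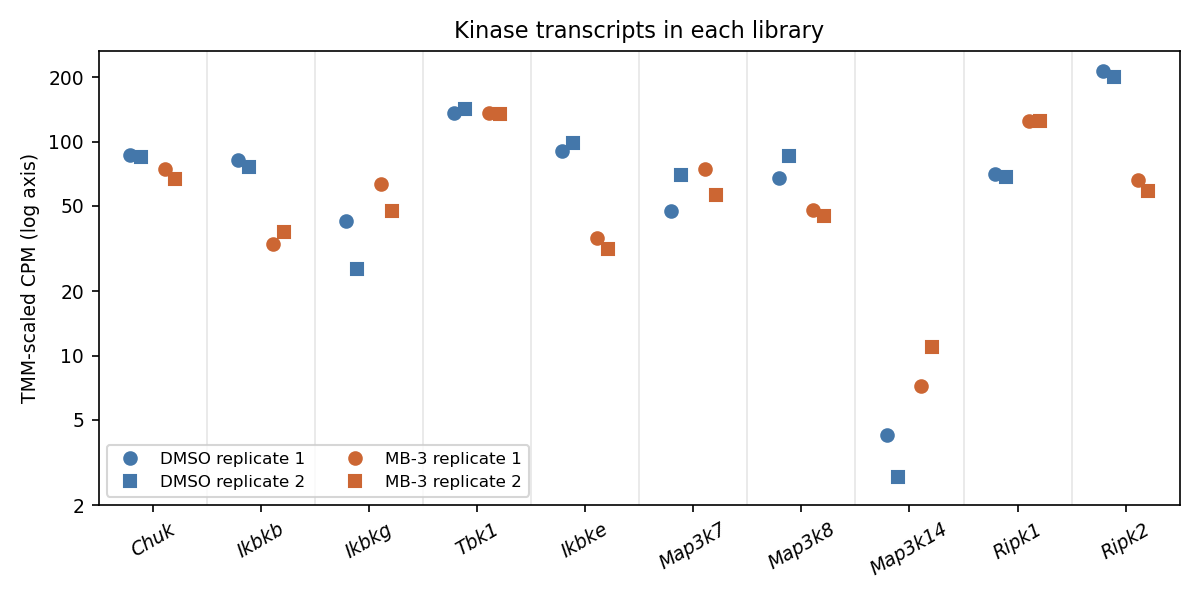
TMM-scaled CPM (log axis) of the 10 genes in each library; each point is 1 library, circles are replicate 1 and squares replicate 2. Ripk2 falls from 213 and 200.3 to 66.3 and 58.6 CPM, Ripk1 rises to 125 CPM in both MB-3 libraries, Tbk1 stays between 134 and 141 CPM, and the groups overlap for Map3k7.

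Of the subunits of the canonical IκB kinase complex, Ikbkb was called as lower, and Chuk and Ikbkg did not pass. Ikbkb (ENSMUSG00000031537, chromosome 8 from 22659212 to 22706589), the gene of IKKβ, which is the main kinase for IκBα downstream of LPS, was at 82.3 and 75.7 CPM with DMSO and at 33.2 and 37.9 CPM with MB-3. Both MB-3 libraries lay below both DMSO libraries. The fall was 2.22-fold (log2 fold change -1.15, SE 0.10, edgeR adjusted p = 0.000416). Chuk (ENSMUSG00000025199, chromosome 19 from 44073335 to 44107480), the gene of IKKα, was at 86.6 and 84.2 CPM with DMSO and at 74.2 and 66.6 CPM with MB-3. Its groups did not overlap either, but the difference was small, at -0.28 (SE 0.091), and narrowly missed the threshold in edgeR (adjusted p = 0.055). It passed in 5 of 13 alternative settings, where the adjusted p ranged from 0.0225 to 0.256.

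Ikbkg (ENSMUSG00000004221, chromosome X from 74393290 to 74453854), the gene of the ubiquitin-binding subunit NEMO, had a positive difference that did not pass the threshold. It was at 42.6 and 25.3 CPM with DMSO and at 63.3 and 47.6 CPM with MB-3. The MB-3 libraries were the higher ones, and replicates within each group lay farther apart than the nearest libraries of different groups (log2 fold change 0.70, SE 0.25, edgeR adjusted p = 0.0751). Whether it passes depends on the model, since Ikbkg was called by DESeq2 (0.73, adjusted p = 0.0146) and by edgeR without the low-count filter (0.69, adjusted p = 0.00911). Without DMSO replicate 1 the difference was 1.18 and was called (edgeR adjusted p = 0.0041), without MB-3 replicate 1 it was 0.48, and without DMSO replicate 2 it was 0.39. The Ikbkg row spans G6pdx, the gene of glucose-6-phosphate dehydrogenase, which lies on the opposite strand and shares 418 bases of exon with it in GENCODE M21. G6pdx rose from 95.2 and 91.5 to 224 and 215 CPM (1.23, SE 0.077, edgeR adjusted p = 8.91e-05). The library kit keeps strand, but whether the counting did is not given in the sources used here. The part of G6pdx reads in the Ikbkg value was not tested.

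The balance of the subunit transcripts was also read inside each library, where scaling between libraries drops out. A ratio does not remove any G6pdx reads counted in the Ikbkg row, and their part was not tested. For every unit of Chuk, Ikbkb stood at 0.323 and 0.305 on the deposited FPKM scale (fragments per kilobase of gene length, scaled to library total) with DMSO and at 0.152 and 0.193 with MB-3. On the log2 scale the Ikbkb to Chuk ratio differed by -0.87 between the groups. The Ikbkg to Ikbkb ratio was 0.563 and 0.364 with DMSO and 2.07 and 1.37 with MB-3, a difference of 1.89 on the log2 scale. The level of a ratio rests on the gene lengths, and its difference between groups does not. By longest coding transcript the Ikbkg to Ikbkb ratio was 0.294 and 0.190 with DMSO and 1.08 and 0.714 with MB-3, and that of Ikbkb to Chuk 0.837 and 0.791 against 0.395 and 0.501. Neither ratio overlapped between groups. With 2 libraries against 2, the exact two-sided permutation test cannot give less than the p of 0.333 that it gave for both.

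Of the pair that phosphorylates IRF3, Ikbke fell and Tbk1 did not pass. Ikbke (ENSMUSG00000042349, chromosome 1 from 131254343 to 131279606), the member known as inducible by LPS and interferon, was at 89.9 and 98.7 CPM with DMSO and at 35.5 and 31.6 CPM with MB-3. The MB-3 libraries were far below the DMSO libraries, a 2.81-fold fall (log2 fold change -1.49, SE 0.10, edgeR adjusted p = 0.000138). Tbk1 (ENSMUSG00000020115, chromosome 10 from 121546455 to 121586794), the member expressed in most cell types, was at 137 and 141 CPM with DMSO and at 136 and 134 CPM with MB-3. All of its libraries lay within a few CPM of each other (-0.04, SE 0.075, edgeR adjusted p = 0.691). The Ikbke to Tbk1 ratio within a library was 0.169 and 0.179 with DMSO and 0.0669 and 0.0603 with MB-3, a difference of -1.45 on the log2 scale (exact two-sided permutation p = 0.333, the smallest that 2 against 2 allows). By longest coding transcript it was 0.613 and 0.650 against 0.243 and 0.219, so Ikbke was below Tbk1 in each library with either length.

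Promoter windows of these paralogues are printed because the Ikbke transcript fell and that of Tbk1 did not pass. Which start site was used in these cells is not known, as counts are summed over a gene. The RefSeq windows (GRCm38.p6) run from 250 bases before to 50 bases after a start site, both lie on the minus strand, and capitals mark matches to the short motifs named after them. Ikbke is chr1:131279514-131279813 and Tbk1 is chr10:121586745-121587044.
Ikbke: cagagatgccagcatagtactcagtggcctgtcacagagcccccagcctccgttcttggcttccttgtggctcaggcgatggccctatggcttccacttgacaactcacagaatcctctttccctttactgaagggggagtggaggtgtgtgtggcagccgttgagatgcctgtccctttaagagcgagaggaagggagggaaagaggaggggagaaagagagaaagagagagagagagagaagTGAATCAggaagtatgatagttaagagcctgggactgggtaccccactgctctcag
Tbk1: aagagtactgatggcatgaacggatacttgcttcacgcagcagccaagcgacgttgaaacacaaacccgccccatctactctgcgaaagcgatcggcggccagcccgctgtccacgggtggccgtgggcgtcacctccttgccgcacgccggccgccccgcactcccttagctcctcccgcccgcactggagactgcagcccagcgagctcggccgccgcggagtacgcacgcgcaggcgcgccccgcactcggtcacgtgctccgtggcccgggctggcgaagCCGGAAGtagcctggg
Motifs were searched on both strands: AP-1 (TGANTCA), the antioxidant response element core (TGACNNNGC), the ETS core (CCGGAAG), and, by name, the interferon-stimulated response element and the κB consensus. The antioxidant motif can overlap AP-1, as it did in an Ikbkg window. Ikbke held an AP-1 match from 6 bases before the start site up to the start base, and a match of that kind is found in 7.81% of 32817 promoters of this length. Tbk1 held an ETS core match, as 8.86% of promoters do. No κB consensus was found in these 2 windows (4.5% of promoters hold one), which says only that those letters are not there. Windows were given for 7 of the 10 genes; Ikbkb, Map3k8 and Ripk2 had no match by symbol. Among the others, Map3k7 held the κB match (GGAAATTCCC, 92 to 83 bases before the start site), and Chuk and Map3k14 held no match to the 5 motifs.

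Of the transcripts of kinases that act on other kinases, Map3k8 fell, Map3k14 rose from a low level and Map3k7 showed no difference beyond its spread. Protein was not measured. Map3k8 (ENSMUSG00000024235, chromosome 18 from 4331327 to 4353015), the gene of TPL2, which activates MEK1 after LPS, was at 67.8 and 85.8 CPM with DMSO and at 48.0 and 44.7 CPM with MB-3. The groups did not overlap, although the DMSO libraries were wide apart (log2 fold change -0.73, SE 0.13, edgeR adjusted p = 0.00662). Without DMSO replicate 2, the higher of them, the change was -0.54 and was still called (edgeR adjusted p = 0.0115).

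Map3k14 (ENSMUSG00000020941, chromosome 11 from 103219762 to 103267472), the gene of NIK, had 91 and 43 counts with DMSO and 129 and 197 counts with MB-3. The exact Poisson 95% intervals were 73.3 to 112 and 31.1 to 57.9 counts with DMSO, and 108 to 153 and 170.4 to 227 counts with MB-3, for counting error only. After scaling these were 4.24 and 2.69 CPM against 7.21 and 11.0 CPM. The MB-3 libraries were higher than the DMSO libraries, and the intervals of the MB-3 libraries, which were of similar depth, did not overlap each other. The change was 2.59-fold (log2 fold change 1.37, SE 0.31, edgeR adjusted p = 0.0165). Without MB-3 replicate 2 the change was 1.04 and the call was lost (edgeR adjusted p = 0.0749), and on the log2(FPKM + 1) scale, which compresses low levels, it was 0.54.

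Map3k7 (ENSMUSG00000028284, chromosome 4 from 31964097 to 32023467), the gene of TAK1, was at 47.3 and 69.6 CPM with DMSO and at 74.6 and 56.2 CPM with MB-3. It was the only 1 of the 10 genes whose groups overlapped. Its difference of 0.17 (SE 0.21, edgeR adjusted p = 0.577) turned to -0.04 without DMSO replicate 1 and to -0.05 without MB-3 replicate 1. Inside each library, Map3k8 exceeded Map3k7 by 1.49 and 1.28 times in deposited FPKM with DMSO, and was 0.669 and 0.827 times its level with MB-3. That crossing holds for the deposited lengths alone: by longest coding transcript Map3k8 stayed above Map3k7 in each library, by 3.22 and 2.77 times with DMSO and 1.45 and 1.79 times with MB-3. The Map3k8 to Map3k14 ratio was 17.6 and 35.0 with DMSO and 7.31 and 4.47 with MB-3, or 26.4 and 52.7 against 11.0 and 6.73 by longest coding transcript. These ratios differed by -0.89 and -2.12 on the log2 scale, with no overlap and an exact two-sided permutation p of 0.333 for each.

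The transcripts of the RIP kinases moved in opposite directions. Ripk2 (ENSMUSG00000041135, chromosome 4 from 16122733 to 16163647), which carries the signal of NOD1 and NOD2, was at 213 and 200.3 CPM with DMSO and at 66.3 and 58.6 CPM with MB-3. It was the highest of the 10 genes in CPM with DMSO, and the MB-3 libraries were far below. The fall was 3.31-fold (log2 fold change -1.73, SE 0.095, edgeR adjusted p = 5.71e-05), larger without its sign than that of 93.0% of all genes tested. Ripk1 (ENSMUSG00000021408, chromosome 13 from 34002363 to 34035170), which decides between NF-κB signalling and cell death at the TNF receptor, was at 70.8 and 68.2 CPM with DMSO and at 125 CPM in each MB-3 library. Replicates of both groups agreed closely, and the groups were well apart (1.80-fold, log2 fold change 0.85, SE 0.079, edgeR adjusted p = 0.000477).

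Within a library, the Ripk2 to Ripk1 ratio was 5.61 and 5.48 in the DMSO libraries and 0.987 and 0.874 in the MB-3 libraries on the deposited FPKM scale. By longest coding transcript it was 7.24 and 7.06 with DMSO and 1.27 and 1.13 with MB-3. Ripk2 was thus several times above Ripk1 with DMSO, and near it with MB-3, just below by the deposited lengths and just above by the coding ones. The difference of -2.58 on the log2 scale was the largest of the 6 ratios compared, with an exact two-sided permutation p of 0.333 as for the others. In GENCODE M21 the Ripk1 row shares 241 bases of exon with Serpinb6a on the opposite strand and 511 bases with the processed pseudogene Gm17084 on its own strand. Serpinb6a was at 135 and 182 CPM against 187 and 169 CPM and did not pass (0.17, SE 0.15). Its difference was 0.02 without DMSO replicate 1 and 0.41 without DMSO replicate 2. Gm17084 had at most 76 counts in a library, whereas Ripk1 had at least 1088. Serpinb6a had 2897 and 2899 counts with DMSO and 3355 and 3024 counts with MB-3. The part of reads from either overlapping gene in the Ripk1 value was not tested.

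Ripk1 is shown at its second RefSeq start site because this window, unlike that at the outer start site, held motif matches. It lies on the plus strand at chr13:34002624-34002923 of GRCm38.p6, with matches in capitals.
Ripk1: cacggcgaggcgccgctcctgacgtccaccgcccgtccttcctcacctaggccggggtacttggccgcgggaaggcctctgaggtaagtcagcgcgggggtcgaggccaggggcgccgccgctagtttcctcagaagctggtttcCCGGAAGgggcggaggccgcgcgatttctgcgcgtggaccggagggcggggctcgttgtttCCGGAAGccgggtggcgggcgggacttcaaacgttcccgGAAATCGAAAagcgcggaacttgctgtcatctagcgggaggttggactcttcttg
The matches were an interferon-stimulated response element across the start site (GAAATCGAAA, from 5 bases before to 4 after) and 2 ETS cores further upstream. Of all promoters of this length, 3.43% hold the former motif. That share is for 1 motif in 1 window, whereas 2 Ripk1 windows were searched for 5 motifs. The window shown was picked for its matches. The deposited counts are summed over a gene, so they do not say which start site was used.

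**Figure D2:**
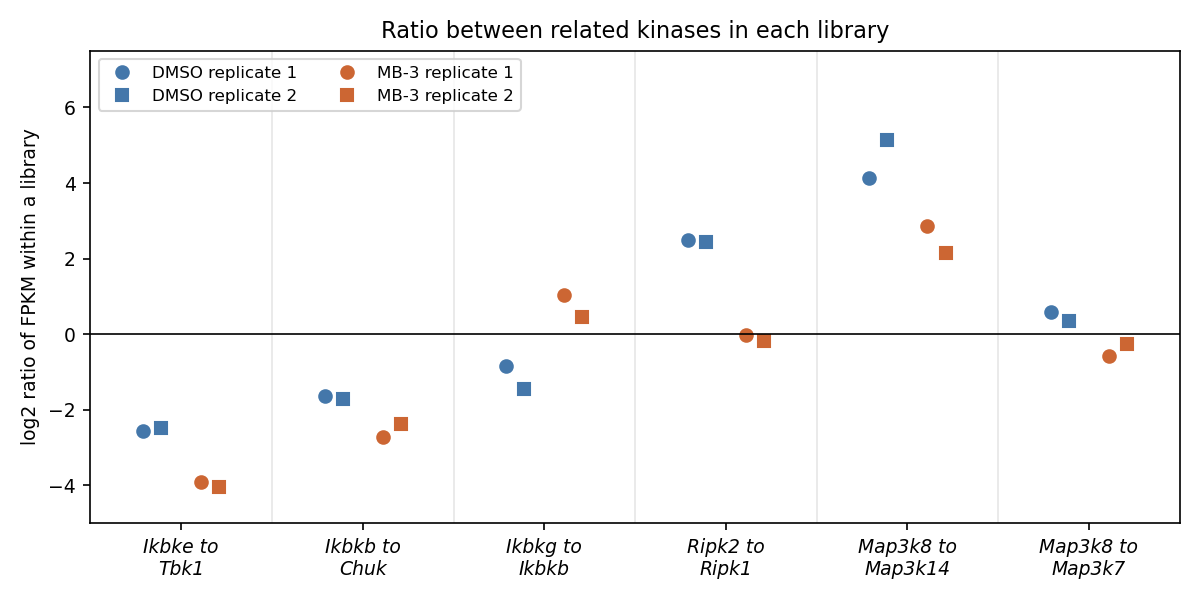
Log2 ratio of deposited FPKM between related kinases within each library, with 1 point a library, circles for replicate 1 and squares for replicate 2. All 6 ratios, some of which share a gene, separate the groups. Of single genes tested, 70.8% do so too, and the share over other gene pairs was not computed. The difference is -2.58 for Ripk2 to Ripk1 and 1.89 for Ikbkg to Ikbkb, of which Ikbkg alone was not called. The Ikbkg row shares exon with G6pdx, whose part in it was not tested. An exact permutation p cannot fall below 0.333 here.

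Levels per length ordered the genes as follows. With DMSO the deposited FPKM was highest for Ripk2 (47.8 ± 1.57, SD, n = 2) and Tbk1 (46.5 ± 1.68), whose libraries overlapped. Below, overlap is given for neighbours in the order. Chuk (10.4 ± 0.0878), Map3k8 (10.2 ± 1.81), Ripk1 (8.63 ± 0.133), Ikbke (8.08 ± 0.627) and Map3k7 (7.48 ± 2.11) followed. Within these, Chuk and Map3k8 overlapped, as did Ikbke and Map3k7. Ikbkb (3.28 ± 0.156), Ikbkg (1.53 ± 0.535) and Map3k14 (0.419 ± 0.128) were lowest and separate. With MB-3 the order was led by Tbk1 (43.8 ± 0.814), Ripk1 (15.1 ± 0.385) and Ripk2 (14.0 ± 0.846), each apart from the next. Chuk (8.34 ± 0.409) overlapped with Map3k7 (8.09 ± 1.39). Below them stood Map3k8 (5.97 ± 0.133), Ikbke (2.78 ± 0.153) and Ikbkg (2.43 ± 0.421), of which the last pair overlapped. Ikbkb (1.44 ± 0.171) just overlapped with Map3k14 (1.07 ± 0.343), at 1.31 and 1.56 against 0.830 and 1.32 FPKM, and was the higher in each library. The overlap holds for the deposited lengths alone: by longest coding transcript they were apart, at 8.07 and 9.56 against 1.64 and 2.60 FPKM.

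This order depends on the length assigned to each gene. The length implied by the deposited counts and FPKM was 24415 bases for Ikbkb and 22427 bases for Ikbkg, whereas the longest coding transcript in GENCODE M21 has 3977 and 6994 bases. For Tbk1 these lengths were 3031 and 3024 bases. Divided by the longest coding transcript, Ikbkb was at 20.2 ± 0.958 FPKM with DMSO (SD, n = 2) and 8.81 ± 1.05 with MB-3, and Ikbke at 29.4 ± 2.28 and 10.1 ± 0.559. Ripk2 (77.9 ± 2.57) then stood apart from Tbk1 (46.6 ± 1.68) with DMSO, and Tbk1 (43.9 ± 0.816) led Ripk2 (22.8 ± 1.38) with MB-3. Map3k14 remained the lowest in both groups, at 0.827 ± 0.252 and 2.12 ± 0.678 FPKM. Comparisons of the same gene between groups do not depend on its length.

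**Figure D3:**
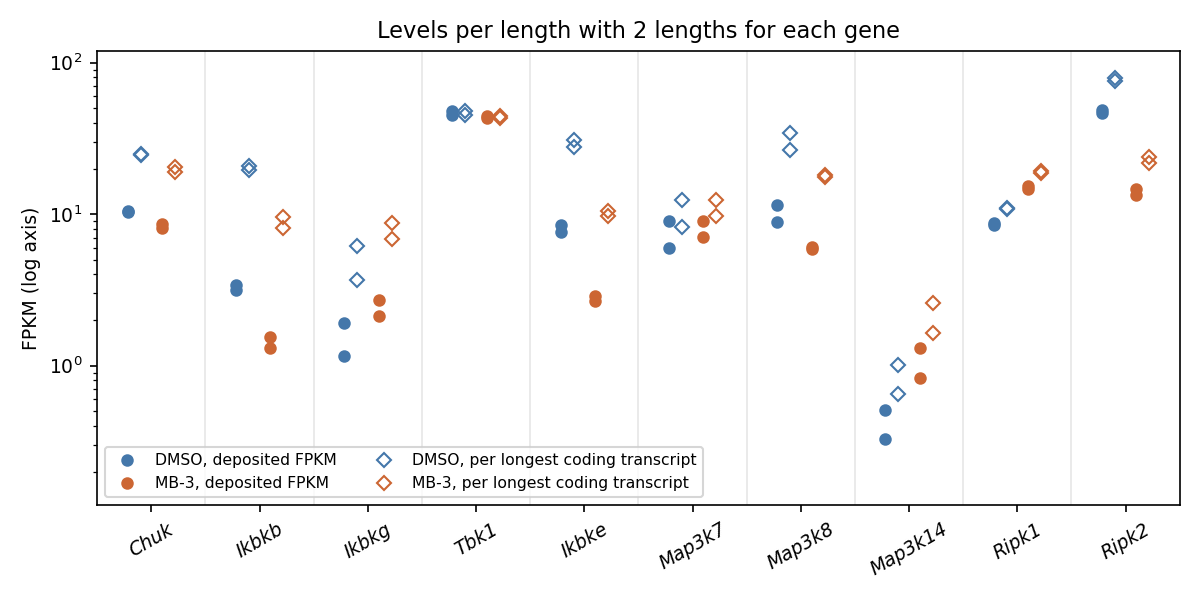
Level per length (FPKM, log axis) of each gene with the deposited length (filled) and with the longest coding transcript of GENCODE M21 (open); each point is 1 library. Ikbkb with DMSO moves from 3.28 to 20.2 FPKM between the lengths, while Tbk1 stays near 46.5.

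**Figure D4:**
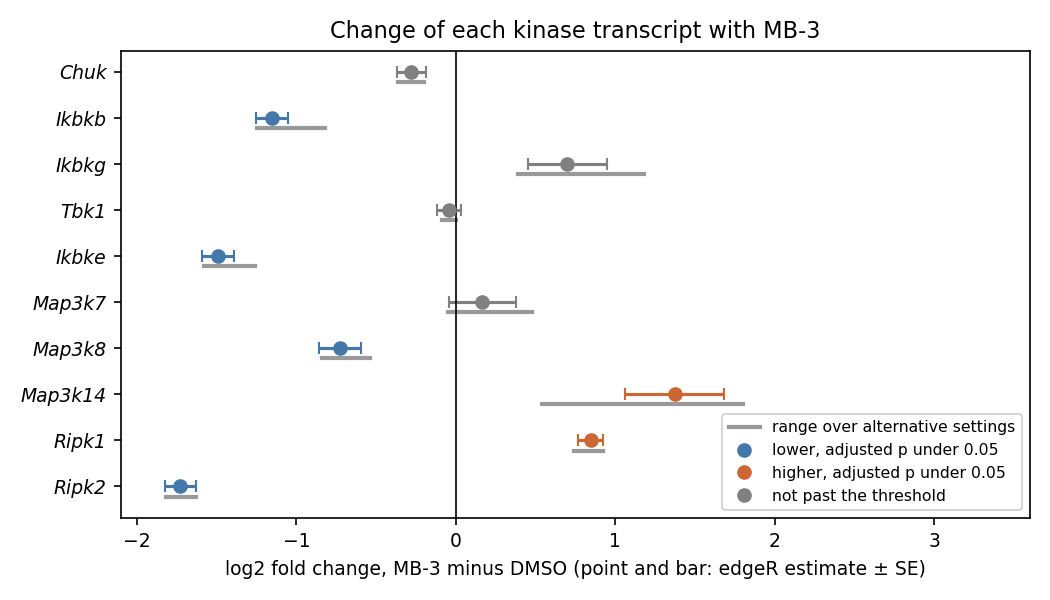
Log2 fold change (MB-3 minus DMSO) of each gene, as the edgeR estimate with its SE, coloured by call; the grey bar under each point is the range over the alternative settings. Ripk2 (-1.73) and Ikbke (-1.49) have narrow ranges, that of Map3k14 runs from 0.54 to 1.80, and that of Map3k7 crosses 0.

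The genes around the kinases were read from lists by role. Upstream, 10 of 21 genes of receptors and adaptors were lower, 2 were higher and 9 did not pass, with a median log2 fold change of -0.34. Tlr3, the receptor for double-stranded RNA that signals to TBK1, fell from 70.4 and 68.2 to 6.42 and 9.15 CPM (-3.15, SE 0.17, edgeR adjusted p = 5e-05). Nod1 fell from 70.6 and 69.2 to 18.4 and 17.9 CPM (-1.95, SE 0.090), and Nod2 from 26.6 and 25.4 to 3.13 and 1.95 CPM (-3.35, SE 0.22). The transcripts of both sensors that use RIPK2 were thus lower together with Ripk2. The genes that rose were Ticam1 (1.16), which encodes the adaptor TRIF, and Traf3 (1.39), whose product takes NIK to degradation and also serves TBK1. Tlr4, the LPS receptor, was at 48.8 and 10.8 CPM with DMSO and at 9.61 and 13.4 CPM with MB-3, and its groups overlapped.

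Among 24 partners that bind or ubiquitinate the kinases, 11 were lower, 5 were higher and 8 did not pass, with a median of -0.22. Without MB-3 replicate 1, 3 were higher. Tnip1, whose product ABIN1 binds NEMO and ubiquitin chains, fell from 350 and 312 to 82.9 and 87.6 CPM (-1.96, SE 0.090, edgeR adjusted p = 3.09e-05). Birc3, which encodes the ubiquitin ligase cIAP2, fell from 108 and 111 to 46.9 and 45.4 CPM (-1.25, SE 0.082). Of the TBK1 adaptors, Tank (-0.76) and Azi2 (-0.80) fell, Optn (0.42) rose and Tbkbp1 (0.31) did not pass. The TAK1 binding proteins Tab1 (-0.27), Tab2 (-0.18) and Tab3 (0.36) did not pass, nor did Tnip2 (0.11), which encodes a partner of TPL2. Xiap, the ubiquitin ligase for RIPK2, rose from 23.6 and 31.4 to 56.4 and 54.8 CPM (1.02, SE 0.14). Traf2 (-0.42), Birc2 (-0.69) and Birc3, which encode the partners of TRAF3 in the complex that degrades NIK, fell.

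Of 13 substrates, 11 were lower, 1 was higher and 1 did not pass, with a median of -1.07. Nfkbia, the gene of the IKKβ substrate IκBα, fell from 1119 and 1030.5 to 134 and 129 CPM (-3.03, SE 0.080, edgeR adjusted p = 5.35e-06). Irf7, the gene of an interferon regulatory factor, fell from 549 and 534 to 49.2 and 48.4 CPM (-3.47, SE 0.076). Irf3 itself did not pass, at 47.7 and 51.9 CPM with DMSO and 40.5 and 45.5 CPM with MB-3 (-0.21, SE 0.10). The NIK route substrate gene Nfkb2 fell by 1.79 and Relb by 0.59, and Nfkb1, whose p105 product holds TPL2, fell by 0.86. The member that rose was Mavs (0.47), the mitochondrial adaptor of RNA sensing, and leaving out any 1 library ended that call.

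Downstream, 6 of 13 tested genes of the MAP kinase arm were lower, 1 was higher (Map2k4, 0.36) and 6 did not pass, with a median of -0.34. The higher call was lost without DMSO replicate 2. Map2k1, the gene of the TPL2 substrate MEK1, fell from 369 and 338 to 145 and 138 CPM (-1.32, SE 0.081, edgeR adjusted p = 8.55e-05), while Map2k2 (0.14) did not pass. Mapkapk3, a kinase gene downstream of p38, fell by 1.02 (SE 0.11). Mapk11, also called as lower, was at only 3.50 and 1.25 CPM with DMSO and 0.0559 and 0.446 CPM with MB-3. With the stricter filter on low counts, 5 genes of this arm were lower. Among 12 tested genes of the wider MAP3K family, 4 were higher, 1 was lower and 7 did not pass, with a median of 0.55. The called share was 41.7%, near the 37.1% of all genes tested. Among the higher genes was Map3k9, at only 1.35 and 0.564 CPM with DMSO and 2.85 and 3.18 CPM with MB-3. With the stricter filter 3 were higher. The lower one was Map3k5 (-0.59), whose call ended without DMSO replicate 1 or either MB-3 library and with RLE or upper-quartile scaling. Map3k3, which encodes MEKK3, rose from 44.2 and 41.8 to 70.4 and 70.5 CPM (0.71, SE 0.085), and Map3k11, which encodes MLK3, rose by 0.76 (SE 0.11).

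All 7 tested genes of the list of other RIP kinases and cell death partners of RIPK1 passed, 5 as lower and 2 as higher, with a median of -0.80; Ripk4 of the 8 was not tested. Mlkl, the executioner of necroptosis, fell from 234 and 220 to 81.6 and 83.2 CPM (-1.46, SE 0.078, edgeR adjusted p = 5.27e-05). Zbp1, a sensor that engages RIPK3, fell from 435 and 422 to 149 and 136 CPM (-1.59, SE 0.079). Cflar, which restrains caspase-8, fell by 2.00, Fadd by 0.80 and Casp8 by 0.62. Ripk3, the kinase that acts on MLKL, rose from 23.6 and 21.3 to 39.8 and 39.0 CPM (0.81, SE 0.10), as Ripk1 did, and Dstyk rose by 0.46. Only 1 of these 2 rises was called without DMSO replicate 2 or either MB-3 library. Of 17 output genes of the pathway, 14 were lower, 0 were higher (also 0 in DESeq2 and at an unadjusted p under 0.05) and 3 did not pass, with a median of -1.70 in edgeR. The others were Ifnb1 (-1.70, under 1 CPM in each group on average), Isg15 (0.07) and Cxcl2 (0.02). The log2 fold change was -5.70 for Il1a and -7.94 for Il1b, the genes of the interleukin-1 cytokines. All lists are set against the 20.2% lower and 16.9% higher of all genes tested, and they were not tested as sets.

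**Figure D5:**
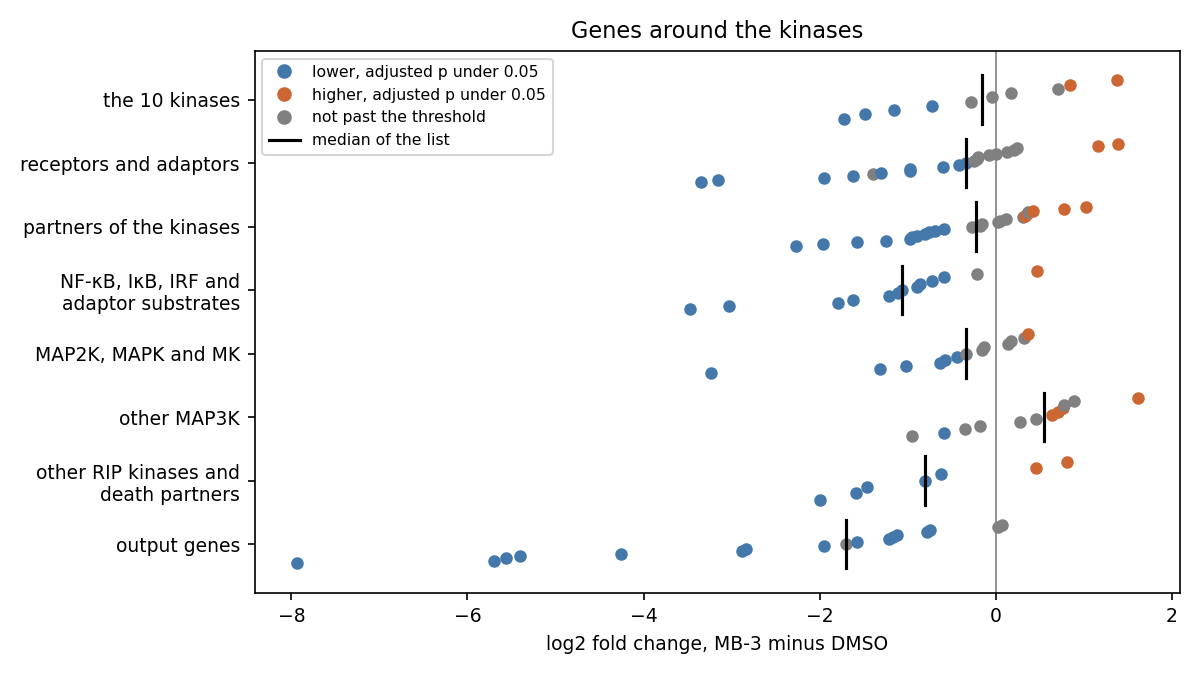
Log2 fold change (MB-3 minus DMSO) of each tested gene in the lists by role, with 1 point a gene coloured by call and a black line at the list's median. Substrates (median -1.07) and output genes (-1.70) lie mostly to the left, and the wider MAP3K family (0.55) mostly to the right.

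The genes whose pattern over the 4 libraries was nearest to that of the members with the largest changes each way were sought by Euclidean distance of centred log2 CPM among genes whose mean reached 10 CPM. For Ripk2 they were Tlr2 (distance 0.02, 1321 and 1253 against 410 and 359 CPM), Pnpt1 (0.0417) and Slc28a2 (0.0449). For Map3k14 they were Dennd4c (0.384, 26.3 and 20.8 against 60.1 and 67.7 CPM), Rab3gap2 (0.445) and Kitl (0.457). None of these was as near as the genes given for Ripk2. Map3k14 itself had group means of 3.47 (DMSO) and 9.10 (MB-3) CPM, under the 10 CPM required of the genes searched. Why its nearest genes lay farther off was not tested. With 4 libraries in 2 groups, such nearness mostly restates the size of the difference between groups.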

How the data were processed

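The authors' deposited table gave, per the file headers, a whole-number count per gene and an FPKM value for each of 4 libraries. Tools listed in the submitters' processing notes are edgeR, HISAT2 and StringTie 1.3.0, with GRCm38.p4 and mm10 as builds; how strand and multi-mapping reads were handled is not given in the sources used here. The deposited FPKM equal the counts over library total and a gene length, within 0.1% in 100% of pairs, so they are no separate measurement. RNA was selected with oligo(dT) beads and libraries made with a strand-specific kit, per the labels' protocols. The test used edgeR 4.0.16 under R 4.3.3 on the counts (filterByExpr, TMM, glmQLFit, glmQLFTest, group only), with Benjamini-Hochberg adjustment over 11841 genes. SE is the size of the log2 fold change over the square root of F. DESeq2 1.42.0, limma 3.58.1 on log2(FPKM + 1) and log2(FPKM + 0.1), other scalings and filters, a replicate block and each library left out were the alternatives. The edgeR fit alone was tested on simulated counts, with known changes in a small part of the genes. The ratios, levels per length and motif search were not. Replicates were not copies: chi-square per degree of freedom was 13.0 for DMSO and 11.1 for MB-3. The members and lists were chosen with earlier results of these data known. Named genes are the 10 members, the 2 smallest p with non-overlapping groups in each list, the nearest patterns and overlapping genes; other genes were named as partners after their values were seen. Coordinates are those of the deposited table, and 34267 of its identifiers were in GENCODE M21.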

Additional observations from a re-analysis of the deposited data

How the results depend on the processing

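Ripk2, Ikbke, Ikbkb, Map3k8 and Ripk1 kept direction and call in all 13 alternatives. Over the 10 genes, the number called higher was 2, and it was 1 with the stricter filter, which removes Map3k14, and 1 to 3 when single libraries were left out. The number called lower was 4 in each of those omissions. Chuk was also called with library totals only, the stricter filter, both limma fits and the replicate block, and Ikbkg with no low-count filter (adjusted p = 0.00911), DESeq2 (adjusted p = 0.0146) and the replicate block (adjusted p = 0.00139). Values that changed sign were Tbk1 with upper-quartile factors (0.00), Map3k7 without DMSO replicate 1 (-0.04) and without MB-3 replicate 1 (-0.05), and Gm17084 without DMSO replicate 2 (1.26). Leaving out libraries in turn gave -0.05 to 0.48 for Map3k7 and -2.19 to 1.26 for Gm17084; the cause was not tested. Over all genes, 1283 to 1802 were called higher when single libraries were left out, the lowest without MB-3 replicate 1. In the lists, the counts of higher genes on leaving out libraries were 3 to 5 for partners, 0 for substrates, 0 to 1 for the MAP kinase arm and 1 to 2 for the RIP list, and the count of lower genes was 0 to 1 in the MAP3K family. That lower gene, Map3k5, was also lost (0 called) with RLE and upper-quartile factors, the higher substrate with DESeq2 (0 called), and the RIP list had 1 higher gene in both limma fits. With log2(FPKM + 1) the log2 ratios shrank, by construction for low levels, to -1.18 for Ikbke to Tbk1, -0.52 for Ikbkb to Chuk, 1.26 for Ikbkg to Ikbkb, -2.44 for Ripk2 to Ripk1 and -1.22 for Map3k8 to Map3k14. Same-numbered libraries are not stated to be paired. Deviations of same-numbered libraries correlated across genes at 0.217, and with the replicate block 3 of the 10 genes were called higher and 5 lower. Levels per length and ratios by longest coding transcript were computed after the data were seen.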
